A study of Homo sapiens with 28 samples.

Results

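The 40 genes described here act in mitosis: the cyclins and kinases that start it, the checkpoint that holds it until chromosomes are attached, the proteins of the spindle and those that split the cell. Their probe sets were found by the gene symbol of the platform annotation, with 1 probe set per gene, the one with the highest mean log2 intensity. Of the 40, 38 had a probe set of their own, out of 22357 genes in all. The probe sets of BUB1B and SPAG5 name another gene as well, PAK6 and RSKR, so these genes are not reported. A gene was tested when its log2 intensity was above 5 on at least 4 of the 28 arrays, which 36 members and 9285 genes passed. The other 2 members, PTTG1 and RACGAP1, were below that level on every array. Of the 36, 30 were above it on every array, while CDCA3 and UBE2C were above it on 0 of the 5 arrays of the higher dose at 24 h.

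Most of these genes are transcribed late in the cell cycle, in G2 and mitosis, through the MuvB complex with B-MYB and FOXM1, and they are repressed in resting cells through the DREAM complex, which binds a promoter element called the cell cycle homology region. CCAAT boxes, bound by NF-Y, are common beside it. Because their RNA is made mainly by cycling cells, their level is widely used as a measure of proliferation in tumours, melanoma included. BET proteins bind acetylated histones through bromodomains and support transcription elongation, and BAY1238097 is a small molecule that occupies those bromodomains.

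CHL-1 is an established human melanoma line. Its cells received BAY1238097 at 75 nM for 4 h (5 arrays) or 24 h (5 arrays), at 468 nM for 4 h (5 arrays) or 24 h (5 arrays), or the vehicle DMSO for 4 h (4 arrays) or 24 h (4 arrays), and total RNA was hybridised to Affymetrix arrays. The comparisons describe how the transcriptional response depends on dose and time in 1 cell line. The labels do not say whether the arrays of a group hold RNA of separate cultures. P-values here therefore rest on the spread between arrays, part or all of which may be technical.

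On the arrays as a whole, the melanocyte lineage markers SOX10 (mean log2 intensity 9.55) and S100B (6.95) passed the filter, while MITF (2.60), MLANA (1.51) and TYR (1.30) did not. Of 6 markers each, 0 keratinocyte, 0 fibroblast and 0 endothelial markers passed, and 2 leukocyte markers did, CD68 and LCP1. HEXIM1, which holds P-TEFb inactive and is often used to read out BET inhibition, had 8.18, 8.51, 8.46, 8.12 and 8.24 at 468 nM and 24 h, against 7.33, 6.89, 6.71 and 7.10 in DMSO at 24 h. Every 468 nM array at 24 h was above every DMSO array of that time. At 75 nM and 24 h HEXIM1 lay between 7.12 and 7.64 and overlapped DMSO (log2 change 0.32, limma adjusted p = 0.201). MYC, a second check of the treatment, changed by -0.54 at 468 nM and 24 h (limma adjusted p = 0.00186). At 75 nM and 24 h it changed by -0.01 (adjusted p = 0.985). At 4 h HEXIM1 changed by 0.85 at 75 nM (limma adjusted p = 6.28e-04) and by 1.67 at 468 nM (adjusted p = 5.2e-10). MYC changed at 4 h by -0.41 at 75 nM (limma adjusted p = 0.222) and by -1.07 at 468 nM (adjusted p = 2.59e-06).

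One array stood apart for the mitotic genes. At 468 nM and 24 h the mean log2 intensity of the 36 members was 6.90, 6.86, 7.02, 7.71 and 6.93, so replicate 4 was the highest. Relative to the DMSO mean of that time it lay at -0.85, against -1.55 to -1.71 on the other 4 arrays, and 35 of the 36 members had their highest value of the group there. The same array was highest for 30.7% of the 2299 other genes called lower, whose median difference there was -0.63, against -0.65 to -0.77 on the other 4. Related genes that are no members, described below, were also nearest to DMSO there. The mean difference of the DNA replication list was -0.64, against -1.12 to -1.28 on the other 4. That of the mitotic entry switch list was -0.74, against -0.96 to -1.18. At 75 nM and 24 h replicate 4 was also the highest array (0.07 above the DMSO mean, with the others 0.31 to 0.35 below it). These 2 arrays and replicate 3 of DMSO at 24 h (0.20 above the mean of its group) belong to the fourth of 5 runs of 26 consecutive numbers in the sample titles. The labels do not say what a run marks. Results are given below with and without that run, and within runs.

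**Figure D1:**
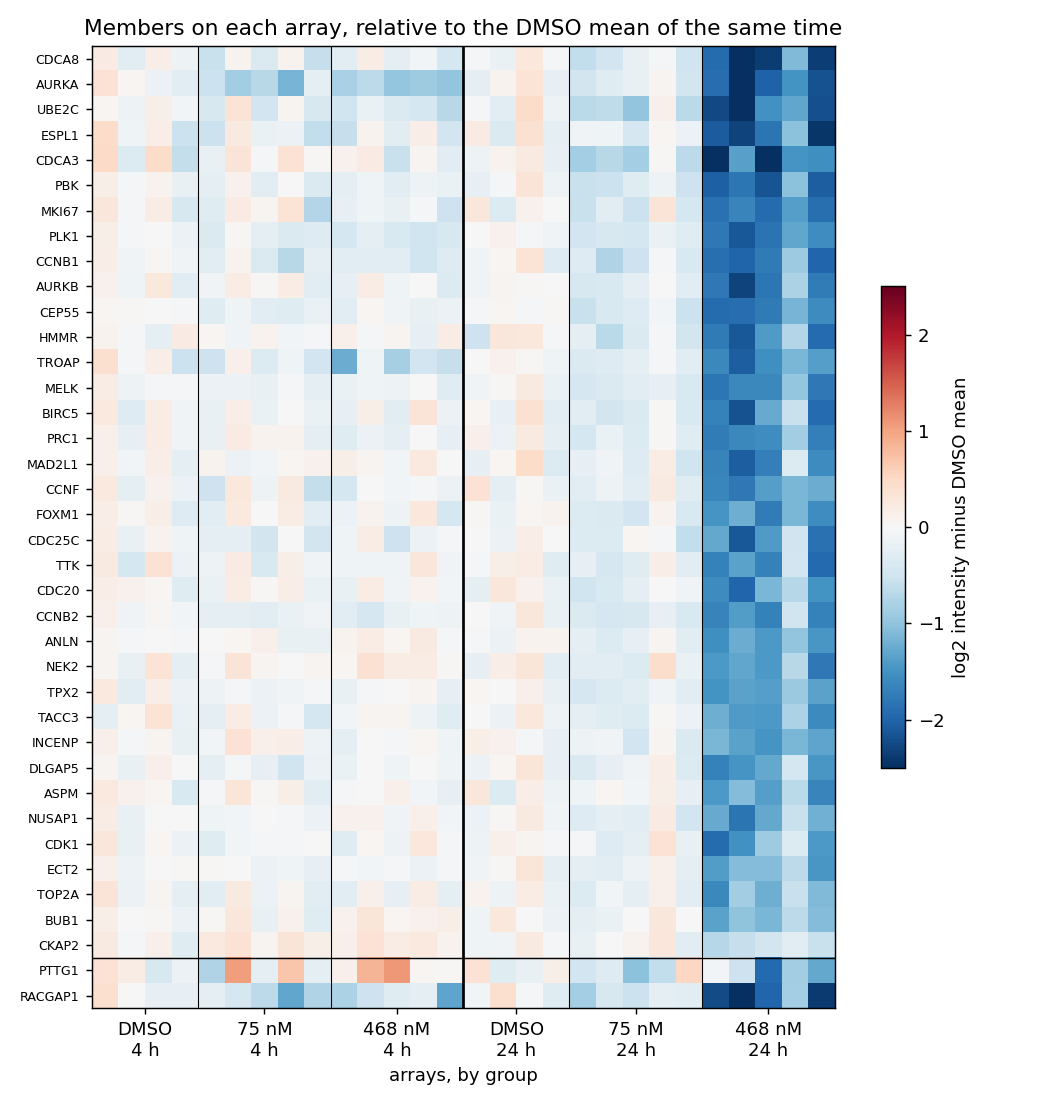
Log2 intensity of 38 members (down the page) on each of the 28 arrays (across, by group), as the difference from the mean of the DMSO arrays of the same time, with blue for lower and red for higher. The 5 arrays of 468 nM at 24 h are blue for all 36 tested members, palest on replicate 4. PTTG1 and RACGAP1, below the line, were too dim to be tested.

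At 468 nM and 24 h all 36 tested members were lower than in DMSO (limma, Benjamini-Hochberg adjusted p below 0.05), and 0 were higher. Over all genes tested, 25.1% were called lower in that comparison and 20.4% higher. The median log2 change of the members was -1.44, and it ran from -2.09 for CDCA8 to -0.52 for CKAP2, while the median over all genes was -0.02. Of the members, 35 were at least 2-fold lower, or 97.2%, against 6.76% of all genes tested. For all 36, every treated array lay below every DMSO array, though in MAD2L1 the nearest arrays were equal to 2 decimals. Of all genes tested, 17.1% had that pattern. The 36 include CDCA3 and UBE2C, which passed the filter only through other groups, so their place in these counts is partly set by the filter. That holds for every comparison with this group. With the filter at log2 7 on 4 arrays, 34 members were tested and 34 were lower. In bulk RNA fewer cells in mitosis and less RNA per cell cannot be told apart. The median was -1.65 without replicate 4 of 468 nM and -1.58 without the fourth run of title numbers, and 36 of 36 members were called in both fits. Within the 4 runs that hold both groups, the member mean at 468 nM was lower than in DMSO by a difference of -1.67, -1.52, -1.05 and -1.50, with 36 of 36 members lower in each.

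**Figure D2:**
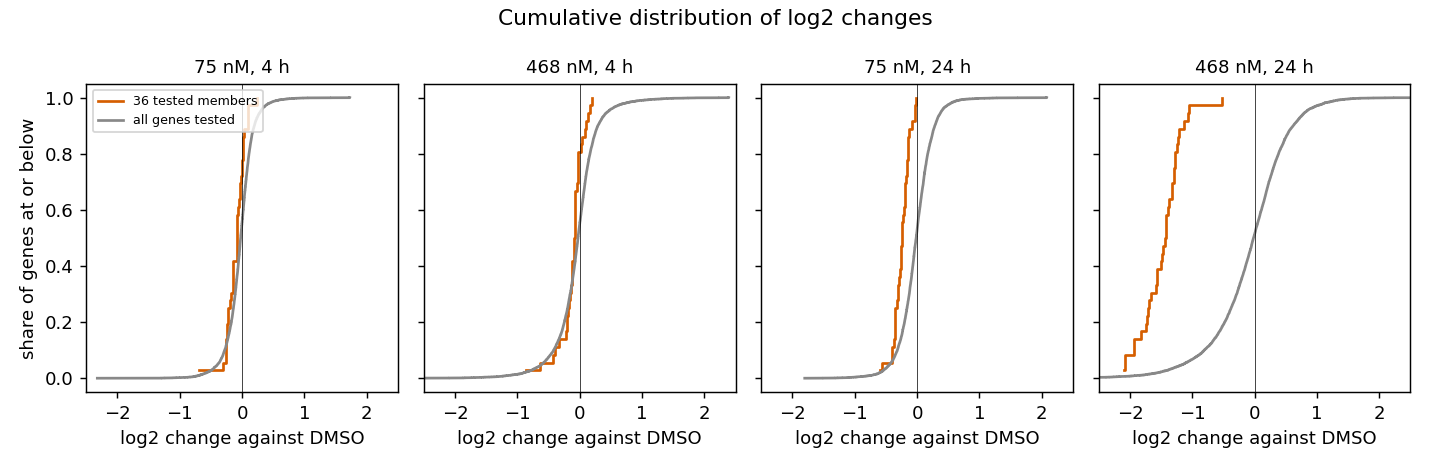
Share of genes (vertical axis) at or below a log2 change against DMSO of the same time (horizontal axis, the far tails left out), for the 36 tested members (orange) and all 9285 genes tested (grey). The 2 curves lie close together at 4 h. At 75 nM and 24 h the members lie slightly to the left, all of them below 0, and at 468 nM and 24 h they lie between -2.09 and -0.52.

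Since these genes moved together at that dose and time, their promoters are shown for 7 members. RefSeq sequences (GRCh38.p14) from 250 bases before to the transcription start were found for 31 of the 40 members. Capitals mark the core of the cell cycle homology region, TTTGAA (reverse strand TTCAAA), and the CCAAT box (reverse strand ATTGG), and each line gives the last 100 bases before the start, in the direction of transcription. In CDCA8 and MKI67 both motifs overlap in 1 run of capitals. CKAP2, the member with the smallest change, has neither in these bases. MELK and TACC3, not shown and both more than 2-fold lower, also have neither in the 250 bases.
CDCA8, chr1:37692416-37692515, + strand: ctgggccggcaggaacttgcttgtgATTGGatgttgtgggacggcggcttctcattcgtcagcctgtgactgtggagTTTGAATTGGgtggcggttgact
PLK1, chr16:23678789-23678888, + strand: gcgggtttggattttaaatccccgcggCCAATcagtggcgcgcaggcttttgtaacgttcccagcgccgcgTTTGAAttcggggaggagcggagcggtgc
CCNB1, chr5:69167050-69167149, + strand: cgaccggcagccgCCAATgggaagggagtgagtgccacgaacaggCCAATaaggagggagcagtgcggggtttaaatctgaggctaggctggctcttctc
CCNB2, chr15:59105046-59105145, + strand: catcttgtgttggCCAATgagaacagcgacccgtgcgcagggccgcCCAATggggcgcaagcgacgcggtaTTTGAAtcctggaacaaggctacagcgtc
CDC20, chr1:43358881-43358980, + strand: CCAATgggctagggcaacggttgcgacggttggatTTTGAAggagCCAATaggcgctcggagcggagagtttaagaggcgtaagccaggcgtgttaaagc
MKI67, chr10:128126424-128126523, - strand: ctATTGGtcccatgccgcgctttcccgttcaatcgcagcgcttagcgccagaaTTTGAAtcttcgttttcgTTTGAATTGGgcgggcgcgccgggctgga
CKAP2, chr13:52455888-52455987, + strand: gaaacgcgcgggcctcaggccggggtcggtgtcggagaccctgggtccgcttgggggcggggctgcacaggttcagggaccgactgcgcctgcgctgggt

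Both strands of the 250 bases were searched, and a gene counted when any of its listed start sites had a match. TTTGAA was present for 19 of 31 members (61.3%), against 16.1% of all 27305 genes of the promoter table, 12% of the genes tested here and 1 of 35 genes of a DNA replication list (2.86%). CCAAT was present for 25 of 31 members (80.6%), against 37% of all genes and 62.9% of the DNA replication list. Both motifs stood in 1 window for 17 members (54.8%), against 5.79% of all genes. Among the other genes called and at least 2-fold lower at 468 nM and 24 h, TTTGAA was found in 18% of 461 and CCAAT in 45.1%. The size of the change at that dose and time was nearly the same with and without the motif, as a description with no test: the median log2 change was -1.41 for the 18 tested members with TTTGAA and -1.40 for the 10 without it. In the windows shown, a TTTGAA began at position -29 from the start in PLK1, CCNB2 and MKI67. A match is a description of letters, not a binding site or a cause.

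Genes that bring cells into mitosis were lower in all 7 cases at 468 nM and 24 h (median log2 change -1.43, range -1.93 to -1.22). CCNB1 encodes cyclin B1, the partner of CDK1. Its log2 intensity was 6.88, 6.75, 6.99, 7.85 and 6.78 at 468 nM, against 8.68, 8.81, 9.11 and 8.44 in DMSO. The groups did not overlap, although replicate 4 came within 0.60 of the lowest DMSO array. The log2 change was -1.71 ± 0.18 (SE, limma adjusted p = 3.46e-08), 3.27-fold lower. CDK1, the kinase that drives entry into mitosis, had 6.02, 6.43, 7.06, 7.59 and 6.5 at 468 nM, against 7.82, 8.06, 8.0 and 7.89 in DMSO. Replicates 3 and 4 were the highest treated arrays, still below DMSO, and the change was the smallest of this set (-1.22 ± 0.20, adjusted p = 2.24e-05). FOXM1, the transcription factor that activates many G2 and M genes, had 7.16, 7.41, 6.89, 7.5 and 7.08 at 468 nM, against 8.66, 8.48, 8.69 and 8.73 in DMSO. Here replicate 4 lay only slightly above the other treated arrays, and all 5 were at least 0.98 below DMSO (-1.43 ± 0.15, adjusted p = 3.16e-08). CDCA3, a trigger of mitotic entry, had 2.98, 4.28, 3.0, 4.17 and 4.10 at 468 nM, against 5.51, 5.73, 5.87 and 5.43 in DMSO. It was a dim probe set, and all its arrays at 468 nM were below the filter level, so the size of its change (-1.93 ± 0.27, adjusted p = 1.79e-06) is uncertain. Also lower were CCNB2, cyclin B2 (-1.38), CCNF, an F-box cyclin (-1.44), and CDC25C, a phosphatase that activates CDK1 (-1.43).

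All 5 mitotic kinases of the second set were lower (median -1.72). AURKA, or Aurora A, is the kinase of centrosomes and spindle poles. It had 5.83, 4.93, 5.71, 6.23 and 5.55 at 468 nM, against 7.49, 7.82, 8.07 and 7.53 in DMSO. The groups were 1.26 apart at their nearest arrays, and the change was -2.08 ± 0.20 (adjusted p = 7.56e-09), 4.21-fold lower. PLK1, Polo-like kinase 1, works from mitotic entry to cytokinesis and had the brightest probe set of the members (mean log2 intensity 10.50 over all arrays). Its arrays read 9.10, 8.76, 9.03, 9.59 and 9.32 at 468 nM, against 10.87, 10.99, 10.86 and 10.79 in DMSO. The nearest arrays of the 2 groups were 1.20 apart, and the change was -1.72 ± 0.12 (adjusted p = 5.15e-11). NEK2, a kinase that separates centrosomes, changed the least of the kinases. It had 5.25, 5.39, 5.25, 6.0 and 4.91 at 468 nM, against 6.49, 6.86, 6.99 and 6.41 in DMSO, and fell by 1.33 ± 0.18 (adjusted p = 1.25e-06). MELK (-1.56) and PBK (-1.82), kinases of dividing cells, were lower too.

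**Figure D3:**
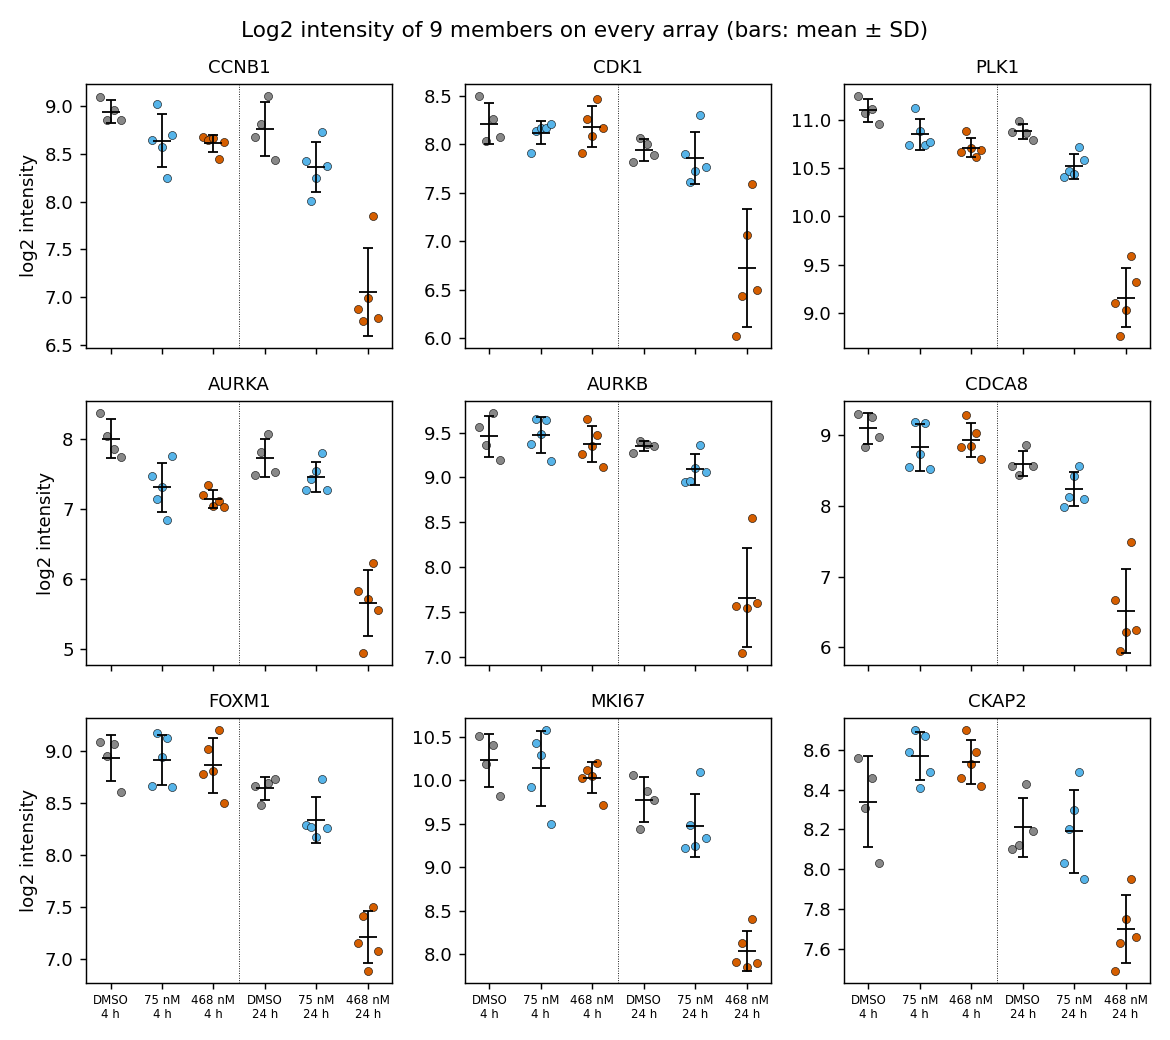
Log2 intensity (vertical axes) of CCNB1, CDK1, PLK1, AURKA, AURKB, CDCA8, FOXM1, MKI67 and CKAP2 in the 6 groups, with DMSO in grey, 75 nM in blue and 468 nM in orange. Points are arrays and bars give the mean ± SD (n = 4 for DMSO, 5 for each dose). In each of the 9 genes the 468 nM arrays at 24 h lie below all DMSO arrays of that time, and at 4 h AURKA has the largest change of the 9 at 468 nM (-0.86).

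The 6 tested genes of the spindle checkpoint, the anaphase-promoting complex and sister separation were all lower (median -1.44). UBE2C, the ubiquitin-conjugating enzyme of that complex, had 3.98, 3.11, 4.71, 4.93 and 4.03 at 468 nM, against 6.18, 5.95, 6.68 and 6.10 in DMSO. The groups lay 1.02 apart at their nearest arrays, and the treated values were near the floor of the arrays (the median of all probe sets was 2.46). Its change was -2.08 ± 0.26 (adjusted p = 4.87e-07). BUB1, a checkpoint kinase at kinetochores, had 7.96, 8.29, 8.15, 8.65 and 8.21 at 468 nM, against 9.20, 9.56, 9.29 and 9.16 in DMSO. This was the smallest change of the set, -1.05 ± 0.13 (adjusted p = 4.43e-07), with the groups 0.51 apart. The others were ESPL1, or separase, which cuts cohesin (-1.93, with 1 of 5 arrays at 468 nM above the filter level, so that its size is uncertain), MAD2L1, which holds back CDC20 (-1.47), TTK, the checkpoint kinase MPS1 (-1.42), and CDC20, an activator of the anaphase-promoting complex (-1.39). In MAD2L1, replicate 4 of 468 nM and the lowest DMSO array both read 7.68, the closest approach of the groups in any tested member. PTTG1, or securin, the inhibitor of separase, was not tested and had means of 2.55 ± 0.72 (SD, n = 5) at 468 nM and 3.48 ± 0.31 (SD, n = 4) in DMSO.

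The 4 subunits of the chromosomal passenger complex, which corrects attachments and then marks the cleavage plane, were lower together (median -1.60). CDCA8, or borealin, had 6.67, 5.94, 6.22, 7.49 and 6.24 at 468 nM, against 8.56, 8.44, 8.87 and 8.56 in DMSO. Replicate 4 was the highest treated array and still 0.95 below the lowest DMSO array. Its change was the largest of all members, -2.09 ± 0.22 (adjusted p = 2.89e-08), or 4.27-fold lower, and ranked 61 from the most negative of 9285 genes. AURKB, Aurora B, the kinase of the complex, had 7.57, 7.04, 7.55, 8.55 and 7.60 at 468 nM, against 9.27, 9.41, 9.37 and 9.35 in DMSO. The DMSO arrays lay within 0.15 of each other, and the treated arrays spread over 1.51, with replicate 2 lowest and replicate 4 highest. The change was -1.69 ± 0.18 (adjusted p = 5.93e-08). INCENP, the scaffold of the complex, had 7.51, 7.33, 7.19, 7.52 and 7.35 at 468 nM, against 8.80, 8.77, 8.63 and 8.45 in DMSO. In INCENP replicate 4 was level with replicate 1, and the change was -1.28 ± 0.12 (adjusted p = 2.66e-09). BIRC5, or survivin, the fourth subunit, stood at -1.51.

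Of the spindle genes, 8 of 8 tested were lower (median -1.28), with the widest range of any set. HMMR, a microtubule-binding protein of spindle poles, had 7.33, 6.99, 7.68, 8.37 and 7.17 at 468 nM, against 8.58, 9.38, 9.36 and 9.08 in DMSO. Replicate 4 of 468 nM came within 0.21 of replicate 1 of DMSO, and the change was -1.59 ± 0.20 (adjusted p = 3.5e-07). CKAP2, a microtubule-stabilising protein, had 7.49, 7.63, 7.75, 7.95 and 7.66 at 468 nM, against 8.10, 8.12, 8.43 and 8.19 in DMSO. It was the 1 member less than 2-fold lower (-0.52 ± 0.12, adjusted p = 8.62e-04, 1.43-fold), and it ranked 1725 from the most negative of all genes, whereas the other 35 members ranked between 61 and 574. In between lay TROAP, or tastin (-1.56), TPX2, which activates Aurora A (-1.29), and TACC3, a substrate of that kinase on spindle microtubules (-1.29). So did DLGAP5, a spindle assembly factor (-1.27), ASPM, a spindle pole protein (-1.24), and NUSAP1, a microtubule bundler (-1.23).

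The 4 tested cytokinesis genes were lower (median -1.41). CEP55, which recruits the abscission machinery to the midbody, had 6.92, 6.93, 7.07, 7.68 and 7.26 at 468 nM, against 8.82, 8.88, 8.80 and 8.86 in DMSO. The DMSO arrays were nearly equal, and every treated array lay at least 1.12 below them (-1.67 ± 0.12, adjusted p = 7.08e-11). ECT2, the exchange factor that activates RhoA at the furrow, had 8.45, 8.76, 8.75, 9.19 and 8.38 at 468 nM, against 9.75, 9.87, 10.14 and 9.59 in DMSO. Its change was the smallest of the set, -1.13 ± 0.13 (adjusted p = 8.61e-08). Also lower were PRC1, which bundles the central spindle (-1.49), and ANLN, the furrow scaffold anillin (-1.33). RACGAP1, the partner of ECT2 at the central spindle, was too dim to test, at 0.80 ± 0.70 (SD, n = 5) with 468 nM and 2.82 ± 0.29 (SD, n = 4) with DMSO.

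Both genes of mitotic chromosomes were lower. MKI67, which coats chromosomes and is the antigen of the Ki-67 proliferation stain, had 7.91, 8.13, 7.85, 8.40 and 7.90 at 468 nM, against 10.06, 9.44, 9.88 and 9.77 in DMSO. The nearest arrays of the groups were 1.04 apart (-1.75 ± 0.20, adjusted p = 1.14e-07, 3.36-fold lower). TOP2A, the topoisomerase that untangles sister chromatids, had 8.95, 9.70, 9.34, 10.00 and 9.46 at 468 nM, against 10.65, 10.44, 10.75 and 10.40 in DMSO. The treated arrays were more scattered than the DMSO arrays, and the change was -1.07 ± 0.17 (adjusted p = 1.03e-05).

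**Figure D4:**
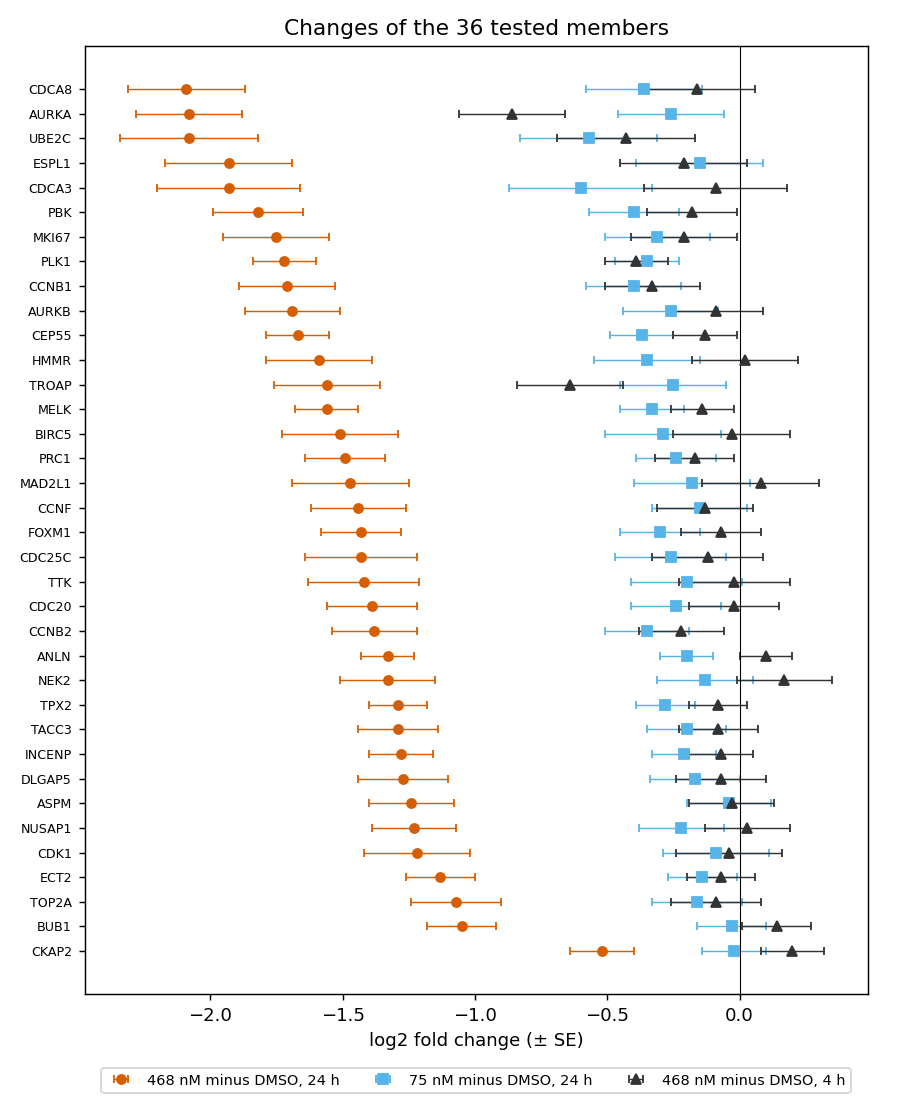
Log2 change (horizontal axis, ± SE) of the 36 tested members, sorted by the change at 468 nM and 24 h, for 468 nM at 24 h (orange circles), 75 nM at 24 h (blue squares) and 468 nM at 4 h (black triangles), each against DMSO of the same time. The circles lie between -2.09 and -0.52. The squares are all below 0 and none passed the test, and the triangles of AURKA, TROAP and PLK1 did.

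At 75 nM and 24 h limma called 0 of 36 members (9 had an unadjusted p below 0.05), and 0.474% of all genes were called lower. All 36 log2 changes were nonetheless below 0, against 53.1% of all genes tested, with a median of -0.25 and a range of -0.60 (CDCA3) to -0.02 (CKAP2). Only 1 of the 5 CDCA3 arrays at 75 nM was above the filter level, so the size of its change is uncertain. In 4 members every 75 nM array lay below every DMSO array: CCNB2, CEP55, MELK and PLK1. Of all genes tested, 4.18% had that pattern. CEP55 had 8.29, 8.46, 8.52, 8.77 and 8.31 at 75 nM, against 8.82, 8.88, 8.80 and 8.86 in DMSO. Replicate 4 was just below the lowest DMSO array (-0.37 ± 0.12, adjusted p = 0.124). PLK1 had 10.41, 10.47, 10.44, 10.72 and 10.58 at 75 nM, against 10.87, 10.99, 10.86 and 10.79 in DMSO, again without overlap (-0.35 ± 0.12, adjusted p = 0.141). Without the fourth run of title numbers, CEP55 was called (-0.46, adjusted p = 0.0402). Within runs the member mean differed from DMSO by -0.29, -0.29, -0.13 and -0.21, with 34, 33, 28 and 30 of 36 members lower.

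The doses were compared directly at 24 h. All 36 members were lower at 468 nM than at 75 nM, where 17.4% of all genes were called lower, with a median difference of -1.22. The difference was largest for AURKA (-1.81 ± 0.19, adjusted p = 6.76e-08), and CDCA8 had -1.73 ± 0.21. ESPL1 had -1.79 ± 0.23, but only 1 of its 5 arrays at 468 nM was above the filter level, so its place in this order is uncertain. The difference was smallest for CKAP2 (-0.50 ± 0.11, adjusted p = 0.00124). Arrays of the 2 doses did not overlap in 33 members, against 10.3% of all genes. The exceptions were CDC25C, CKAP2 and MAD2L1. MAD2L1 had 6.35, 5.95, 6.32, 7.68 and 6.44 at 468 nM and 7.81, 7.94, 7.69, 8.20 and 7.53 at 75 nM, so that only replicate 4 of 468 nM reached the range of the lower dose. Within the 5 runs the difference of the member means was -1.31, -1.39, -1.24, -0.92 and -1.30, with 36 of 36 members lower in each.

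**Figure D5:**
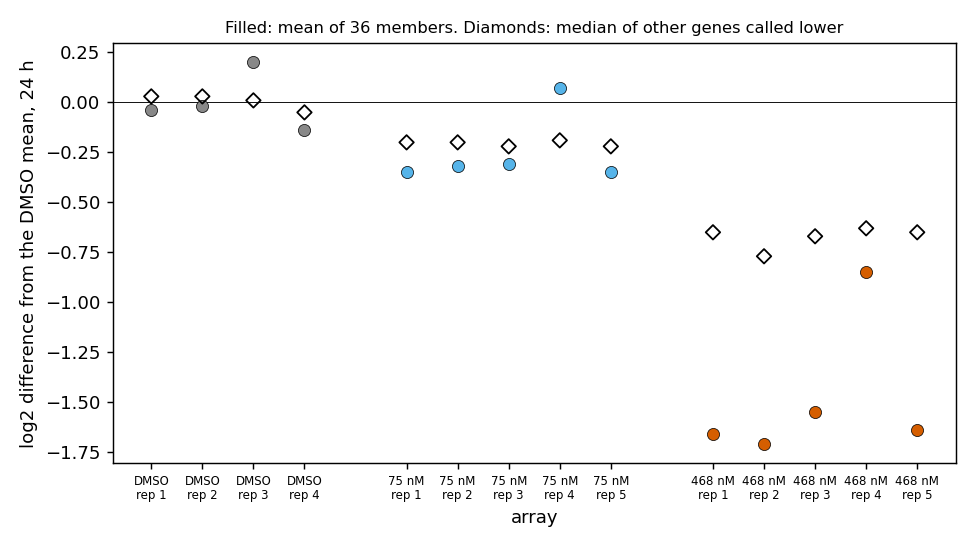
Log2 difference from the DMSO mean at 24 h (vertical axis) on each 24 h array (horizontal axis), as the mean over the 36 tested members (filled circles) and the median of the 2299 other genes called lower at 468 nM (open diamonds). On replicate 4 of 468 nM the member mean lies at -0.85, against -1.55 to -1.71 on the other 4 arrays. The median of the other genes lies at -0.63 to -0.77 on all 5.

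At 4 h few members were called, and their median was near 0. Changes below 0 were still more frequent among the members, 77.8% at 75 nM and 80.6% at 468 nM. Of all genes tested, 55.8% and 54.9% were below 0. Within runs the members were less uniform. At 75 nM 24, 19, 27 and 23 of 36 were lower than in DMSO, and at 468 nM 27, 18, 24 and 22 were. At 75 nM 0 of 36 were called (2 at an unadjusted p below 0.05), with 0.345% of all genes called lower and a member median of -0.09. At 468 nM 3 of 36 were called lower, or 8.33%, and 6.95% of all genes were. The share of members called was thus close to that of all genes. The member median was -0.08, and -0.15 to -0.04 with 1 array left out. In 5 members, AURKA, CCNB1, CCNB2, PLK1 and UBE2C, every 468 nM array lay below every DMSO array, against 8.25% of all genes. Between the 2 doses at 4 h, 0 of 36 members were called (1.43% of all genes were lower), and the median difference was 0.01.

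AURKA had the clearest early change. Its log2 intensity at 4 h was 7.20, 7.35, 7.04, 7.12 and 7.03 at 468 nM, against 8.38, 8.05, 7.86 and 7.75 in DMSO. The 468 nM arrays were tightly grouped and all lay below the lowest DMSO array. The change was -0.86 ± 0.20 (limma adjusted p = 0.00415), 1.82-fold lower. At 75 nM AURKA had 7.48, 7.14, 7.31, 6.84 and 7.76, 1 array of which was level with the lowest DMSO array, and its change was -0.70 ± 0.20 (adjusted p = 0.129). PLK1 had 10.67, 10.88, 10.71, 10.61 and 10.69 at 468 nM, against 11.25, 11.07, 11.11 and 10.96 in DMSO, without overlap (-0.39 ± 0.12, adjusted p = 0.0367). PLK1 was not called with the replicate block from title numbers (-0.36, adjusted p = 0.0618) or with repeated quantile normalization (adjusted p = 0.0529). TROAP had 6.29, 7.43, 6.70, 7.05 and 6.95 at 468 nM, against 7.93, 7.51, 7.69 and 6.99 in DMSO. Its groups overlapped, since DMSO replicate 4 was lower than 2 treated arrays (-0.64 ± 0.20, adjusted p = 0.0314). With 1 array left out, PLK1 missed the threshold in 7 of 9 fits (adjusted p up to 0.125) and TROAP in 5 of 9 (up to 0.143), and AURKA was the 1 member still called without a filter on dim genes. When the fit held just these 2 groups, CCNB1 (-0.33, adjusted p = 0.0459) and UBE2C (-0.43, adjusted p = 0.0387) were called as well, while TROAP was not (adjusted p = 0.124).

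The effect of 468 nM at 24 h was set against its effect at 4 h as an interaction. All 36 members were called with a more negative effect at 24 h, as were 12.7% of all genes. The median difference of the members was -1.35. Without regard to calls, 49.1% of all genes tested had a difference below 0. CDCA8 had the largest difference (-1.93 ± 0.31, adjusted p = 7.4e-05) and CKAP2 the smallest (-0.72 ± 0.17, adjusted p = 0.00272). AURKA, already lower at 4 h, still had a difference of -1.21 ± 0.28 (adjusted p = 0.00257). TROAP had -0.91 ± 0.28 (adjusted p = 0.0174), but was not called when replicate 4 of DMSO at 4 h was left out (-0.73, adjusted p = 0.0505).

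In DMSO alone, 1 of 36 members was called lower at 24 h than at 4 h, and 2.61% of all genes were. That member was CCNF, with 8.95, 8.36, 8.62 and 8.43 at 24 h, against 9.46, 8.99, 9.32 and 9.07 at 4 h. The groups did not overlap, but the change (-0.62 ± 0.19, adjusted p = 0.0491) was not called in any fit that left out 1 array except that without DMSO 24 h replicate 1. HMMR stood the other way, with 8.58, 9.38, 9.36 and 9.08 at 24 h, against 8.5, 8.39, 8.18 and 8.62 at 4 h. DMSO 24 h replicate 1 lay within the 4 h range, and its change of 0.68 ± 0.21 did not pass the test (adjusted p = 0.0539). HMMR did pass without DMSO 24 h replicate 1 (0.85, adjusted p = 0.02), with the filter at 7 (adjusted p = 0.0303), with a variance trend (0.0373) and with the replicate block (0.0326). With arrays shifted to hold reference genes level, HMMR was the 1 member called (0.81, adjusted p = 0.0101) and CCNF was not (-0.48, adjusted p = 0.117), so the direction of the only call turned. The median change of the members with time in DMSO was -0.18, with a range of -0.24 to -0.11 when 1 array was left out and -0.21 to -0.04 under the other alternatives. Without any drug, 32 of 36 members (88.9%) had a change below 0, against 49.9% of all genes tested.

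Other genes of the same pathways were read from lists of genes that are no members. Lower and higher here mean called, which held for 25.1% and 20.4% of all genes tested. At 468 nM and 24 h, 11 of 14 tested genes of the mitotic entry switch were lower and 1 was higher (median -1.11). They included CCNA2, cyclin A2 (-1.80 ± 0.14), BORA, an activator of PLK1 (-1.76 ± 0.20), and CDC25A, a phosphatase of CDK1 and CDK2 (-1.58 ± 0.11). Of the MuvB, B-MYB and DREAM genes, 6 of 9 were lower and 0 higher (median -0.81), among them MYBL2, which encodes B-MYB (-1.37 ± 0.13), and LIN9, a MuvB subunit (-1.36 ± 0.16). Of the augmin, centrosome and spindle list, 12 of 16 were lower and 1 higher (median -0.50), with the centriole genes SASS6 (-1.54 ± 0.12) and STIL (-1.24 ± 0.15) as examples.

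Not every list of mitotic genes was lower as widely. Of 16 subunits and regulators of the anaphase-promoting complex, 4 were lower (25%) and 3 higher (18.8%), shares near those of all genes (median -0.12). FBXO5, its inhibitor EMI1, fell by 0.98 ± 0.13, the scaffold ANAPC1 fell by 0.73 ± 0.26 (adjusted p = 0.025), and ANAPC16 rose by 0.67 ± 0.14 (adjusted p = 3.88e-04). Of 13 genes of the cleavage furrow and abscission, 2 were lower (15.4%) and 3 higher (23.1%), again near the shares of all genes (median 0.02): KIF23, the kinesin that pairs with RACGAP1 (-1.59 ± 0.17), and ARHGAP11A, a RhoA regulator (-1.65 ± 0.16), fell, while TSG101, a sorting subunit also used in abscission, rose by 0.61 ± 0.11. Among 41 DNA replication genes 38 were lower and 0 higher (median -1.09), and 56.1% were at least 2-fold lower. On replicate 4 of 468 nM at 24 h the DNA replication genes too were nearest to DMSO, with a mean difference of -0.64, against -1.12 to -1.28 on the other 4 arrays. Of 9 reference genes 4 were lower and 3 higher (median 0.06).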

How the data were processed

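RNA of CHL-1 cells was measured on 28 Affymetrix arrays. The authors deposited linear intensity values per probe set, made with RMA per the submitters' processing notes; its version and the genome build are stated in none of the sources used here. Values were converted to log2. Array medians lay between 2.44 and 2.49, so changes are relative to each array's distribution. Of 53617 probe sets, 23871 had 1 gene symbol, 1842 several and 27904 were unnamed here. Symbols were updated through gene IDs.

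Groups follow the labels; replicate numbers only name arrays. Limma 3.58.1 (R 4.3.3) fitted 6 group means to all arrays (22 residual and 3.84 prior degrees of freedom), with Benjamini-Hochberg adjustment over 9285 genes in each of 8 comparisons, and a call at adjusted p below 0.05. Tables and motif searches used Python 3.11.15. The fit was tested on simulated data. The members and the lists were chosen with earlier results of these data known. Per-array values are given for the members with the lowest and highest change of each role set, for CCNB1, CDK1, PLK1, AURKB and FOXM1, and for members named in a comparison by its calls; up to 3 genes with the largest change are named of each other list. There were 8 alternatives besides leaving out each array, and 1 more, without the fourth run of title numbers, chosen after seeing the data. The number of arrays limits the precision.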

Additional observations from a re-analysis of the deposited data

Results flagged for a closer look

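In groups of 4 or 5 arrays, an array was picked out when its gap to the nearest other array was large for the range of the group (Dixon's test). For the mean of the members these were replicate 4 of 468 nM at 24 h (a mean log2 intensity of 7.71) and replicate 4 of 75 nM at 24 h (8.64), both high. At 75 nM and 24 h, replicate 4 was high in CDCA3 (5.66), NEK2 (7.12) and FOXM1 (8.73). CCNB1 was high on replicate 4 of 468 nM at 24 h (7.85) and low on replicate 4 of 468 nM at 4 h (8.45), and CDK1 was low on replicate 1 of 75 nM at 4 h (7.91). These were 6 of 108 gene and group pairs, and chance alone flags about 1 in 20.

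The effect of 468 nM differed between 24 h and 4 h for all 36 tested members by the interaction test. The difference was -1.84 for CDCA3, -1.18 for CDK1, -1.38 for CCNB1 and -1.36 for FOXM1, of the genes of mitotic entry. Among the kinases it was -1.21 for AURKA, -1.50 for NEK2 and -1.33 for PLK1. UBE2C had -1.65, BUB1 -1.19, CDCA8 -1.93, INCENP -1.22 and AURKB -1.60. CDCA3 and UBE2C were above the filter level on 0 of 5 arrays at 468 nM and 24 h, so their sizes are uncertain. For the spindle, cytokinesis and chromosome genes it was -1.61 for HMMR, -0.72 for CKAP2, -1.53 for CEP55, -1.07 for ECT2, -1.54 for MKI67 and -0.98 for TOP2A.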

How the results depend on the processing

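Against DMSO and against 75 nM, 36 of 36 members were lower at 468 nM when each array was left out and under all alternatives, except that the filter at 7 tested 34 members (34 lower) and no filter tested 38 (37 lower). CKAP2 had the highest adjusted p, 0.0102 and 0.0151, with only the groups compared. In the interaction 35 to 36 were called with 1 array left out, and TROAP missed the threshold with no filter (-0.91, adjusted p = 0.0574).

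Smaller counts moved. Members called at 468 nM and 4 h numbered 1 to 3 with 1 array left out, 1 with no filter, 2 with quantile normalization or the block (PLK1 lost), 4 with only the groups compared (CCNB1 and UBE2C gained, TROAP lost) and 1 without the fourth run of title numbers, an alternative chosen after seeing the data. At 75 nM and 24 h the count was 1 without those arrays. In DMSO over time it was 0 with no filter, repeated quantile normalization, only the groups compared or without those arrays, 2 with the filter at 7 or a trend, 0 to 2 with 1 array left out, and 1 with the shift by reference genes, where that member was HMMR, higher, and not CCNF, lower. Over all settings the member median ran from -0.15 to -0.01 at 75 nM and 4 h, from -0.21 to -0.04 at 468 nM and 4 h, and from -0.11 to 0.03 between doses at 4 h. Over all genes, counts without a filter were 28 at 75 nM and 4 h (63 in the fit reported), 18 at 75 nM and 24 h (81), 123 between doses at 4 h (238) and 103 in DMSO over time (486). With the filter at 7, which tests fewer genes, they were 616 at 468 nM and 4 h (1013) and 2772 at 24 h (4231). With only the groups compared they were 31, 52 and 113 at 75 nM and 4 h, 75 nM and 24 h, and in DMSO. Without the fourth run they were 37, 149 and 210 at 75 nM and 4 h, between doses at 4 h, and in DMSO. Quantile normalization gave 129 at 75 nM and 24 h. With 1 array left out, counts were 39 to 50 and 779 to 943 at 75 and 468 nM and 4 h, 41 to 87 and 3809 to 4282 at 24 h, 168 to 203 and 2537 to 2929 between doses at 4 and 24 h, 1903 to 2372 for the interaction and 201 to 548 in DMSO. The cause of these moves was not tested.

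A shift by 9 measured reference genes moved the median of all genes by over 0.1 at 468 nM and 4 h (to -0.153), between doses at 4 h (to -0.13), in the interaction (to 0.115) and in DMSO (to 0.139). It gave 196 higher and 1011 lower at 468 nM and 4 h (368 and 645 as reported), 42 and 212 between doses at 4 h (133 lower of 238), 13 and 72 at 75 nM and 24 h (37 and 44), 1112 and 749 in the interaction (1005 and 1179), 757 and 76 in DMSO (833 in all, 244 and 242 as reported), and 36 calls at 75 nM and 4 h. The reference genes were not all level themselves. At 468 nM and 24 h 4 of the 9 were called lower and 3 higher, while in DMSO over time 0 were called.

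Same-run arrays of the same time had deviations with a median correlation of 0.205 (0.015 to 0.345, 26 pairs), against -0.046 for different runs. Arrays of a run thus shared part of their deviation. The fit reported held no block because the labels state no pairing. With the replicate block from title numbers the counts were 234 at 75 nM and 24 h and 908 in DMSO, with 3 members there, and all 36 members at 468 nM and 24 h.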
